A study of Mus musculus with 12 samples.

Results

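The TCF/LEF transcription factors and a set of the cofactors they recruit were followed through 12 bulk RNA sequencing libraries of mouse B cell precursors. The 10 genes, of 47069 in the expression table, were chosen by symbol: the factors Tcf7, Lef1, Tcf7l1 and Tcf7l2, the corepressors Tle1, Tle3 and Tle4, and the coactivators Bcl9, Bcl9l and Pygo2. All 10 were found. The precursors grew out of cultured hematopoietic stem cells. Iscove's medium contained IL7, a cytokine that mouse B cell precursors need. They form 4 groups of 3 libraries. The β-catenin group (libraries 244, 255 and 262) carried Mb1-Cre and Catnb lox(ex3), a Ctnnb1 allele from which Cre removes exon 3. Mb1-Cre is driven from the Cd79a (Mb1) locus, so recombination is limited to cells that have turned on this B lineage gene. Cells that never turned it on keep exon 3. Its titles say KO, although the allele stabilises β-catenin. The sorted controls (242, 249 and 251) had the genotype label control, which does not tell whether they carried Mb1-Cre. Both of these groups were sorted for B220, a surface marker of B lineage cells, and went straight to RNA isolation. The inhibitor group (242, 249 and 251) was wild type, was not sorted, and was kept overnight with 40 nM LY2090314, an inhibitor of the kinase GSK3. The untreated group (242, 249 and 251) was its counterpart without the inhibitor.

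TCF/LEF proteins bind DNA at WNT-responsive genes but have little activating power of their own. Without β-catenin they hold corepressors of the Groucho/TLE family, and GSK3 marks free β-catenin for destruction through residues that exon 3 encodes. When β-catenin persists it takes the place of the corepressors on TCF/LEF and brings BCL9 or BCL9L, which in turn hold the PYGO proteins, readers of methylated histone tails. In the mouse, LEF1 supports the growth of early B cell precursors, and TCF-1, the product of Tcf7, drives T lineage commitment.

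The values are FPKM, fragments scaled to gene length and library total, which allow levels of different genes to be set side by side. They sum all transcripts of a gene, and RefSeq lists transcript starts inside Tcf7, Lef1 and Tcf7l2. Shortened TCF-1 in mouse T cells and shortened LEF-1 in human cells come from internal starts and lack the end that binds β-catenin, so a gene total does not separate forms with and without that end. The gene bounds given below for Tcf7 stop at its outer RefSeq start, 52283014. Whether the exon for the part that binds β-catenin lies within these bounds was not tested. The bases before 3 starts inside these genes are shown because FPKM sums over them (RefSeq, GRCm38.p6, 5′ to 3′ on the gene's strand, ending next to the start). They lie at chr11:52282596-52282695 on the minus strand (Tcf7), chr3:131156044-131156293 on the plus strand (Lef1) and chr19:55895071-55895320 on the plus strand (Tcf7l2), and capitals mark a TCF/LEF motif.
Tcf7: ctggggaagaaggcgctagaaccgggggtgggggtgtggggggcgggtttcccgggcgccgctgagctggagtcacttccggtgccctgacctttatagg
Lef1: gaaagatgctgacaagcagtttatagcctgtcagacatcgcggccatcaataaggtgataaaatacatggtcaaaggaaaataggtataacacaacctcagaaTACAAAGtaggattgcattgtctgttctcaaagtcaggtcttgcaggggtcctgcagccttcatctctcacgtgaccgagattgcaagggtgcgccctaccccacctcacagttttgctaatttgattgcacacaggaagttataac
Tcf7l2: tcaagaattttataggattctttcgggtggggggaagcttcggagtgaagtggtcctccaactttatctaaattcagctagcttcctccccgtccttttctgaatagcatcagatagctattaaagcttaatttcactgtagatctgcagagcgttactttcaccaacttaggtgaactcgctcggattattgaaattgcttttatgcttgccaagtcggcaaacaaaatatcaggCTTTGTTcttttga
The motif searched was CTTTGAA with its variants, which are the form CTTTGAT, the form CTTTGTA and the form CTTTGTT. The search covered both strands of the 250 bases before each start. TACAAAG in the Lef1 window is CTTTGTA read on the other strand and begins 147 bases before the start, and CTTTGTT in the Tcf7l2 window begins 14 bases before it. These were the matches in 17 windows of 9 of the 10 genes, against 14.8% of all 32851 mouse windows with a match. The Tcf7 stretch has none of these letters in the 100 bases shown, nor in its full window. A match of letters is a description of the sequence and not a binding site.

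The libraries held 31.9 M to 49.8 M counted fragments. The cell types in the libraries differed, and some libraries stood apart. The 14 B lineage markers (Pax5, Ebf1 and others) summed to 65.2 FPKM in β-catenin library 244 and to 2027 and 1576 in libraries 255 and 262, against 6090 to 6267 in the sorted controls. They summed to 1753 to 2713 FPKM in the inhibitor libraries and 5613 to 7649 in the untreated libraries. Dntt, 1 of the 14, went the other way, with means of 888 and 235 FPKM in these groups. Library 244 also had both Xist at 169 FPKM and the Y-linked Ddx3y at 19.5 FPKM, whereas every other library had one of them at 0.176 FPKM or less. Libraries 249 of the inhibitor and untreated groups held 8139 and 7991 FPKM of 12 myeloid markers, against 83.8 to 514 in the other 4 unsorted libraries. For the 10 genes, tests that rest on these libraries are given with and without them. Results for other genes are given with all libraries only. In bulk RNA, fewer cells that express a gene and less RNA per cell cannot be told apart.

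Tcf7 was the highest of the 10 genes under both manipulations and among the lowest in the sorted controls. In the sorted controls Tle3, Lef1 and Pygo2 led with means of 79.0, 72.9 and 55.1 FPKM, the ranges of Tle3 and Lef1 overlapped, and Tcf7 stood at rank 9 with 3.83 FPKM. In the β-catenin libraries the order was Tcf7 (464 FPKM), Tle3 (111.9), Pygo2 (58.6) and Lef1 (38.8), and the ranges of Pygo2 and Lef1 overlapped. In the inhibitor libraries it was Tcf7 (153 FPKM), Tle3 (106), Lef1 (79.4) and Pygo2 (60.2), with overlap between Tle3 and Lef1 and between Lef1 and Pygo2. The untreated libraries began as the sorted controls did, with Tle3 (89.6 FPKM), Lef1 (70.8), Pygo2 (54.7) and Bcl9 (23.6), but Tcf7 followed at rank 5 with 11.96 FPKM. This Tcf7 mean covered 3.78 FPKM in untreated 242 to 22.5 in untreated 249, and its range overlapped those of Bcl9 and Tle4. Tcf7l1 was the lowest of the 10 in every group, at means of 0.123 to 0.649 FPKM.

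**Figure D1:**
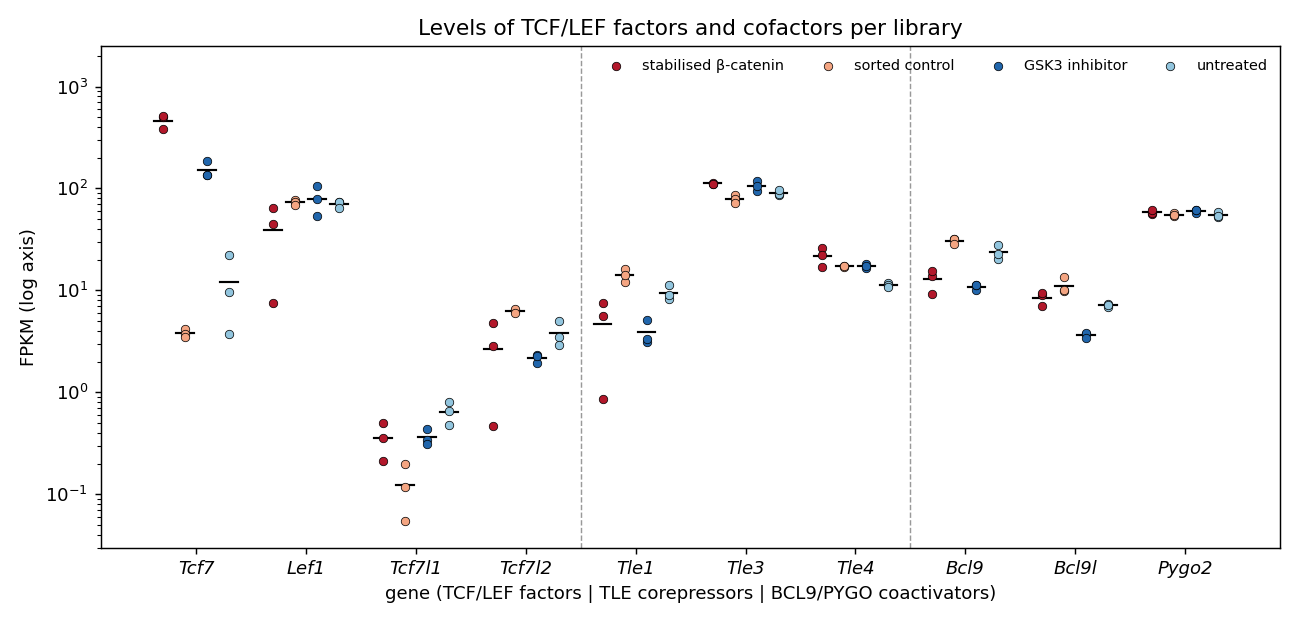
FPKM of each gene in each library on a log axis, with the group mean as a bar; within a gene the groups run from the β-catenin libraries and sorted controls to the inhibitor and untreated libraries. Tcf7 lies between 387 and 508 FPKM in the β-catenin libraries and between 136 and 186 in the inhibitor libraries, and at 22.5 or less in every control library.

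Stabilised β-catenin was set against the sorted controls to ask what constant β-catenin does in B220-sorted cells. With limma on log2(FPKM + 1) and an adjusted p under 0.05 as the call, Tcf7 and Tle3 rose and Bcl9 fell. That is 3 of the 9 genes with enough signal to test, where 36.3% of all 12813 genes tested were called (18.6% higher and 17.7% lower). The 2387 higher and 2269 lower genes became 1993 and 2891 with quantile normalization and 1932 and 3291 with median centring, and the 3 members were called under both. The groups did not overlap for 7 of the 9, against 55.8% of all genes. Tcf7 and Tle3 were higher without overlap, and Lef1, Tcf7l2, Tle1, Bcl9 and Bcl9l were lower without overlap (5, where 29.4% of all genes were lower without overlap). The share of called members was near that of all genes. Without library 244 the calls of Tcf7, Tle3 and Bcl9 held, and Tle1 and Tcf7l2 passed the threshold too.

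The inhibitor was set against untreated cultures to ask what an overnight block of GSK3 does. Tcf7 and Tle4 rose, and Tle1, Bcl9 and Bcl9l fell, which is 5 of 9 tested, where 18.1% of 12685 genes were called (8.47% higher and 9.6% lower). The groups did not overlap for 6 of the 9, against 38.1% of all genes, and 4 of them were lower, against 20.8%. With the number as a replicate block the same 5 members and 3816 genes were called, against 2292 genes without it. Without both libraries numbered 249 the same 5 members were called, with Tcf7 at 4.26 (adjusted p = 0.000347). Across the 3 numbers that pair an inhibitor with an untreated library, 9 of the 10 genes moved in the same direction in every pair, and Lef1 did not. Of all genes tested, 60.7% moved in the same direction in all 3 pairs. The 9 members include Tcf7l1, which was too low to test and so has no part in this share. Tcf7 (higher) and Bcl9 (lower) were called under both manipulations in the same direction. That is 2 of 9 members, against 9.17% of the 12059 genes tested in both. The control libraries of both comparisons are different libraries that carry the same 3 numbers.

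**Figure D2:**
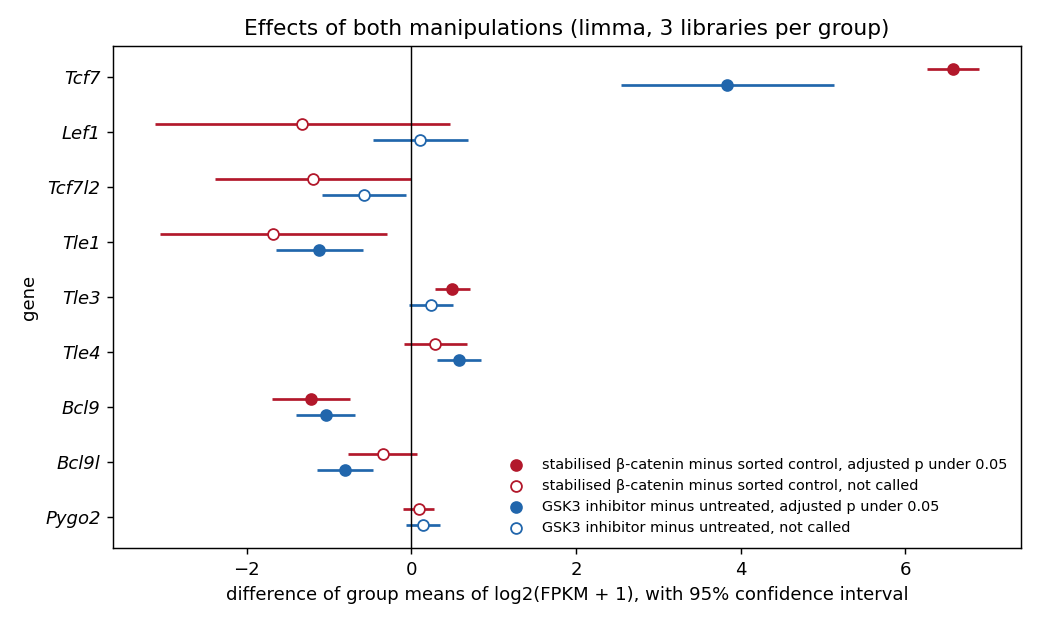
Difference of group means on the log2(FPKM + 1) scale with its 95% confidence interval from limma for the 9 tested genes, the β-catenin effect above the inhibitor effect for each gene; filled points have an adjusted p under 0.05. Tcf7 stands at 6.58 and 3.84, and Bcl9 at -1.22 and -1.04.

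Tcf7 (ENSMUSG00000000782, chromosome 11, 52252371 to 52283014 of GRCm38, minus strand) encodes TCF-1. It had 387, 497 and 508 FPKM in β-catenin libraries 244, 255 and 262, against 4.18, 3.78 and 3.52 FPKM in sorted controls 242, 249 and 251. It had 136, 186 and 136 FPKM in inhibitor libraries 242, 249 and 251, against 3.78, 22.5 and 9.63 FPKM in the untreated libraries with the same numbers. Every β-catenin library and every inhibitor library lay above all control libraries, and the β-catenin libraries also lay above all inhibitor libraries. The sorted controls lay close together, whereas the untreated libraries were spread, with 249 the highest. The ratio of mean FPKM was 121 for β-catenin over sorted control and 12.8 for inhibitor over untreated. On the log2 scale the differences were 6.58 ± 0.129 (SE, adjusted p = 3.73e-05) and 3.84 ± 0.538 (adjusted p = 0.00511) with limma. Within the numbers 242, 249 and 251 the inhibitor gave 35.99, 8.30 and 14.1 times the untreated FPKM, the smallest ratio in the pair whose untreated library was highest.

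The rise of Tcf7 was larger with stabilised β-catenin than with the inhibitor, by 2.74 ± 0.615 on the log2 scale (limma interaction, adjusted p = 0.0241). It was the 1 member of 9 tested for which the effects differed, where 9.12% of 13861 genes were called. This call was lost without a filter on low values (adjusted p = 0.0538) and in 7 of the 12 fits that left out a library, in which the adjusted p ran from 0.0539 to 0.0648. The libraries left out in those 7 were β-catenin 262, the sorted controls 242, 249 and 251, inhibitor 242 and 251 and untreated 251. The 2 manipulations also differ in sorting and duration, which cannot be told apart from this difference.

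Some markers of T cells, which use TCF-1, moved with Tcf7. The 13 T cell markers (Cd3e, Cd8a, Lck and others) summed to 695 to 1172 FPKM in the β-catenin libraries and 109 to 124 in the sorted controls. Of the 11 tested 9 rose, against 18.6% of all genes, and Lat and Cd5 overlapped the sorted controls. A gene was tested if it reached 1 FPKM in 3 or more libraries of the fit. Cd3d, Cd247, Cd8a, Cd8b1, Bcl11b and Gata3 were under 1 FPKM in every sorted control. They were tested only because they were high with β-catenin, so this count is partly set by the filter. The 13 markers summed to 369 to 527 FPKM in the inhibitor libraries and 231 to 269 in the untreated libraries. Here 4 of the 7 tested rose, which were Cd8b1, Zap70, Lat and Cd5, against 8.47% of all genes. Cd5 was under 1 FPKM in every untreated library and Cd8b1 in 242 and 251, so both were tested only through the inhibitor libraries. Cd3g, Gata3 and Lck were tested there and not called, with log2 differences of -0.26, -0.13 and 0.02. Cd8a was at 0 in sorted control 242 and in untreated 242 and 251, Cd8b1 in sorted control 242, Cd4 in untreated 242, and Bcl11b in inhibitor 251. The 13 markers of NK and innate lymphoid cells, some of which also use TCF-1, summed to 886 to 4384 FPKM in the β-catenin libraries. In the sorted controls they summed to 31.5 to 60.7 FPKM, and 12 of 13 tested rose, against 18.6% of all genes. Eomes, Tbx21 and Prf1 were under 1 FPKM in every sorted control, so the filter also partly sets this count. In the inhibitor libraries they summed to 46.1 to 247 FPKM, and in the untreated libraries to 46.3 to 394. Here 1 of the 9 tested fell and 0 rose with limma, where 9.6% of all genes fell and 8.47% rose. Within the β-catenin group the highest sum of T cell and of NK markers was in library 244, whose B lineage sum was lowest. Its Tcf7 was also the lowest, at 387 FPKM against 497 and 508 in libraries 255 and 262. An order of 3 libraries does not tell the source of Tcf7 RNA, and the part of these cell types in its level was not tested.

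Lef1 (ENSMUSG00000027985, chromosome 3, 131110471 to 131224356, plus strand) was not called in any comparison. It had 7.55, 64.2 and 44.7 FPKM in β-catenin libraries 244, 255 and 262, against 76.5, 73.2 and 68.9 FPKM in the sorted controls. All 3 β-catenin libraries were lower than all controls, but library 244 was far below the other two. The difference was -1.33 ± 0.736 (log2, SE, limma adjusted p = 0.201, 95% interval -3.12 to 0.47). Without library 244 it was -0.44 (adjusted p = 0.0629). In the inhibitor libraries Lef1 had 79.0, 53.4 and 106 FPKM for numbers 242, 249 and 251, against 74.2, 74.4 and 63.8 FPKM in the untreated libraries. The groups overlapped, number 249 lay below its untreated partner and number 251 above it. The difference was 0.11 ± 0.239 (adjusted p = 0.791, interval -0.46 to 0.69), which does not show that the level stayed the same. Within the β-catenin group the B lineage markers were lowest in the same library as Lef1, and their part in its level was not tested. Without both libraries numbered 249 the inhibitor difference was 0.40 (adjusted p = 0.147).

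Tcf7l2 (ENSMUSG00000024985, chromosome 19, 55741820 to 55933654, plus strand), best known from the intestinal crypt, was low throughout. It had 0.465, 4.76 and 2.85 FPKM in the β-catenin libraries, against 6.35, 6.52 and 6.07 FPKM in the sorted controls. In the inhibitor libraries it had 2.32, 1.96 and 2.26 FPKM, against 3.51, 4.99 and 2.94 FPKM in the untreated libraries. Both manipulated groups lay below their controls without overlap, and library 244 was again the lowest. Neither difference was called: -1.20 ± 0.489 for β-catenin (limma adjusted p = 0.103) and -0.58 ± 0.215 for the inhibitor (adjusted p = 0.119). Without library 244 the β-catenin difference was -0.63 and passed the threshold (adjusted p = 0.0415), and without library 255 it was -1.62 (adjusted p = 0.0337).

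Tcf7l1 (ENSMUSG00000055799, chromosome 6, 72626378 to 72789254, minus strand), a repressor in mouse embryonic stem cells, was too low to test. It had 14 to 22 counted fragments (0.212 to 0.496 FPKM) in the β-catenin libraries and 3 to 13 (0.0544 to 0.198 FPKM) in the sorted controls. It had 16 to 28 fragments (0.314 to 0.439 FPKM) in the inhibitor libraries and 27 to 40 (0.477 to 0.810 FPKM) in the untreated libraries. The β-catenin libraries were above the sorted controls and the inhibitor libraries below the untreated ones, without overlap, at counts where single fragments matter.

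The make-up of the family followed from these levels. Tcf7 gave 97.9%, 87.8% and 91.4% of the summed FPKM of the 4 factors in the β-catenin libraries, against 4.79%, 4.52% and 4.48% in the sorted controls. It gave 62.4%, 77.0% and 55.6% in the inhibitor libraries, against 4.597%, 21.97% and 12.5% in the untreated libraries. Lef1 held 87.6% to 87.7% in the sorted controls and 72.7% to 90.3% in the untreated libraries, so in all 6 control libraries it was the main TCF/LEF transcript. FPKM of Tcf7 over Lef1 was 7.74 to 51.2 in the β-catenin libraries and 0.0511 to 0.0546 in the sorted controls. It was 1.28 to 3.49 in the inhibitor libraries and 0.0509 to 0.302 in the untreated libraries. The sum of the 4 factors was 506 ± 95.8 FPKM with β-catenin, against 83.1 ± 4.36 in the sorted controls, and 235 ± 14.8 with the inhibitor, against 87.2 ± 13.3 in the untreated libraries (SD, n = 3 each). These shares are a description and were not tested.

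**Figure D3:**
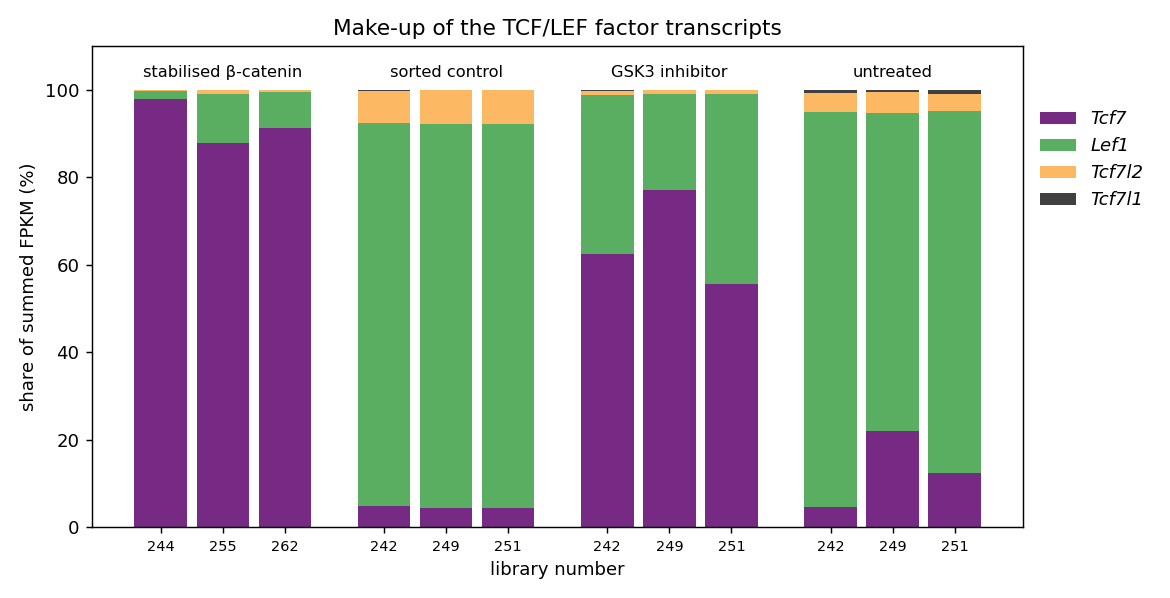
Share of the summed FPKM of Tcf7, Lef1, Tcf7l2 and Tcf7l1 that each gene gave in each of the 12 libraries, as stacked bars in percent. Tcf7 gives 55.6% to 97.9% in the β-catenin and inhibitor libraries, and Lef1 gives 72.7% to 90.3% in the sorted control and untreated libraries.

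Among the corepressors, which hold TCF/LEF factors silent, Tle3 was the main transcript and the 3 genes did not move together. Tle3 (ENSMUSG00000032280, chromosome 9, 61372366 to 61418497, plus strand) had 113.0, 111.1 and 111.6 FPKM in the β-catenin libraries, against 86.3, 79.4 and 71.3 FPKM in the sorted controls. All β-catenin libraries, 244 included, lay close together and above every control. The rise of 0.50 ± 0.088 on the log2 scale was called (limma adjusted p = 0.00948). With the inhibitor Tle3 had 120, 94.6 and 105 FPKM, against 85.8, 87.5 and 95.5 FPKM in the untreated libraries. Each inhibitor library was above its partner of the same number, but the groups overlapped and the difference of 0.24 ± 0.111 was not called (adjusted p = 0.192).

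Tle1 (ENSMUSG00000008305, chromosome 4, 72117142 to 72200919, minus strand) lay on the other side. It had 0.860, 7.46 and 5.60 FPKM in the β-catenin libraries, against 16.2, 12.1 and 14.0 FPKM in the sorted controls. In the inhibitor libraries it had 5.18, 3.12 and 3.32 FPKM, against 11.3, 8.14 and 9.06 FPKM in the untreated libraries. Neither pair of groups overlapped. The fall of 1.12 with the inhibitor was called (log2 difference -1.12 ± 0.220, limma adjusted p = 0.0170), whereas the β-catenin difference of -1.68 ± 0.565 was not (adjusted p = 0.0623). Without library 244 the β-catenin difference was -1.01 and was called (adjusted p = 0.00556), and so it was without library 255 (-2.10, adjusted p = 0.0341), with quantile normalization (0.0388), with median centring (0.0451) and in a fit of all 12 libraries (0.0178). The inhibitor call was lost without inhibitor 251 (adjusted p = 0.0667), untreated 242 (0.0690) or untreated 251 (0.0627), with no filter (0.0507) and in a fit of all 12 libraries (0.114).

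Tle4 (ENSMUSG00000024642, chromosome 19, 14448150 to 14598051, minus strand) rose with the inhibitor. It had 18.3, 16.5 and 17.2 FPKM in the inhibitor libraries, against 11.8, 11.3 and 10.7 FPKM in the untreated libraries, without overlap (log2 difference 0.58 ± 0.114, limma adjusted p = 0.0170). It had 26.1, 22.2 and 17.0 FPKM in the β-catenin libraries, against 17.5, 17.1 and 17.3 FPKM in the sorted controls. Library 262 lay just below the controls and the other two above them (0.29 ± 0.159, adjusted p = 0.191). The inhibitor call did not hold in 5 of the 6 fits that left out a library, all but that without inhibitor 249, with an adjusted p of 0.0511 to 0.0779 and a difference of 0.54 to 0.61 over the 6 fits. Tle3 gave 81.0% ± 2.13 of the summed FPKM of the 3 genes with β-catenin, against 71.5% ± 1.84 in the sorted controls, and 83.3% ± 0.459 with the inhibitor, against 81.2% ± 2.12 in the untreated libraries (SD, n = 3 each).

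Among the coactivators, which connect β-catenin to the transcription machinery, Bcl9 fell under both manipulations. Bcl9 (ENSMUSG00000038256, chromosome 3, 97203662 to 97297917, minus strand) had 9.14, 13.9 and 15.5 FPKM in the β-catenin libraries, against 31.6, 31.7 and 28.7 FPKM in the sorted controls. It had 10.02, 11.3 and 11.2 FPKM in the inhibitor libraries, against 20.1, 22.9 and 27.6 FPKM in the untreated libraries. Every manipulated library lay at 15.5 FPKM or less and every control library at 20.1 or more. The log2 differences were -1.22 ± 0.194 (limma adjusted p = 0.00737) and -1.04 ± 0.148 (adjusted p = 0.00536). Both calls held in every fit that left out a library and under every other setting tried. The effects differed by -0.18 ± 0.249, and this was not called (adjusted p = 0.693, interval -0.73 to 0.38). Of the B lineage markers, 5 of 14 fell with β-catenin and 12 of 14 with the inhibitor, where 17.7% and 9.6% of all genes fell. With the inhibitor 1 of the 14 rose, which was Dntt, at a mean of 888 FPKM against 235 in the untreated libraries. The part of these markers in the level of Bcl9 was not tested.

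Bcl9l (ENSMUSG00000063382, chromosome 9, 44482825 to 44511896, plus strand), the closest relative of Bcl9, had 3.72, 3.78 and 3.42 FPKM in the inhibitor libraries, against 7.31, 6.93 and 7.12 FPKM in the untreated libraries. It had 7.01, 9.07 and 9.44 FPKM in the β-catenin libraries, against 13.5, 9.80 and 10.1 FPKM in the sorted controls. The inhibitor groups were tight and far apart, whereas the β-catenin libraries lay just below the controls. The inhibitor effect was called (log2 difference -0.81 ± 0.143, limma adjusted p = 0.0121) and the β-catenin effect was not (-0.35 ± 0.173, adjusted p = 0.161). The difference between the effects was not called either (0.46 ± 0.209, adjusted p = 0.191). The inhibitor call was lost without inhibitor 242 (adjusted p = 0.0501), untreated 242 (0.0534) or untreated 251 (0.0511).

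Pygo2 (ENSMUSG00000047824, chromosome 3, 89430214 to 89435128, plus strand) had 55.6 to 62.1 FPKM in the β-catenin libraries, against 53.3 to 57.8 in the sorted controls. It had 57.8 to 62.0 FPKM in the inhibitor libraries, against 52.0 to 58.5 in the untreated libraries. Its ratio of the highest to the lowest library was the smallest of the 10 genes over the 12 libraries, and all groups overlapped. The differences were 0.09 (interval -0.10 to 0.28, limma adjusted p = 0.425) and 0.14 (interval -0.07 to 0.35, adjusted p = 0.337), and the first turned to -0.03 when libraries were centred on their medians. Pygo2 gave 73.5% ± 3.49 of the summed FPKM of the 3 coactivators with β-catenin, against 56.9% ± 1.22 in the sorted controls, and 80.6% ± 0.412 with the inhibitor, against 64.1% ± 3.05 in the untreated libraries (SD, n = 3 each).

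**Figure D4:**
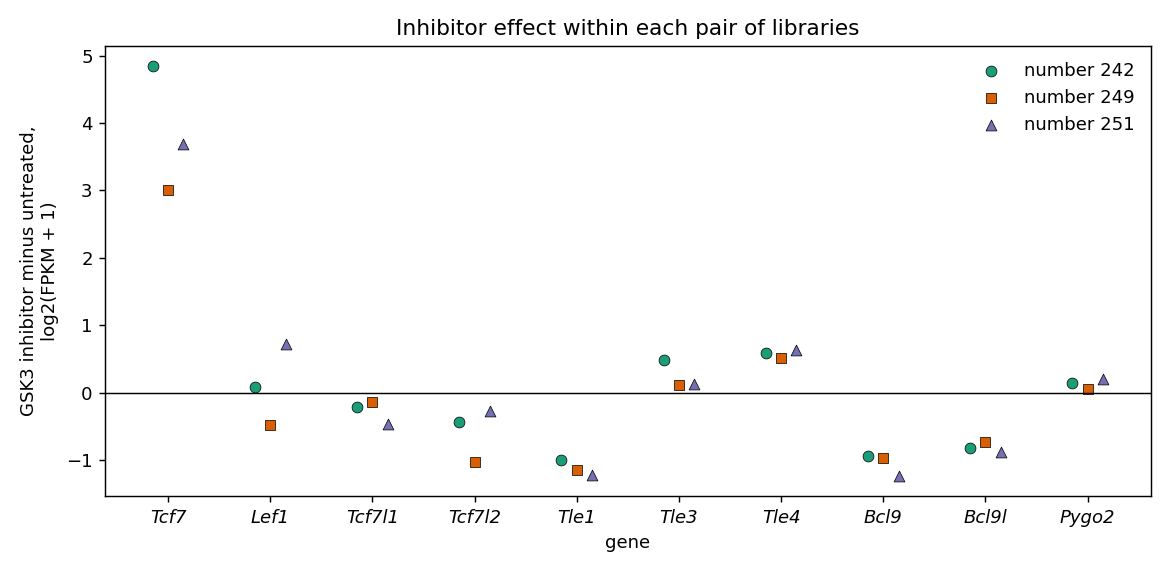
Inhibitor minus untreated library of the same number on the log2(FPKM + 1) scale, with a marker for each of the numbers 242, 249 and 251. Tcf7 is higher in all 3 pairs (4.84, 3 and 3.69), Tle1, Bcl9 and Bcl9l are lower in all 3, and Lef1 is spread over both sides of 0 (0.09, -0.47 and 0.72).

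The control groups themselves differed in sorting and in the overnight culture. The 8 mast cell and basophil markers summed to 247 to 1948 FPKM in the untreated libraries and 1.92 to 45.1 in the sorted controls. Of 6 tested 5 rose, where 4.29% of all genes rose, and Mcpt8 was at 0 in all 3 sorted controls. All 8 were under 1 FPKM in sorted control 242, so those tested passed the filter only with the untreated libraries. The 12 myeloid markers summed to 91.8 to 7991 and 18.5 to 42.8 FPKM in the same groups, and 4 of 6 tested T cell markers rose. Of the T cell markers tested, Gata3 was under 1 FPKM in every sorted control and passed only through the untreated libraries. The part of these cells in the members' levels was not tested. Between untreated libraries and sorted controls Tle4 was the 1 member of 9 tested that was called, at 11.3 ± 0.560 FPKM in the untreated libraries and 17.3 ± 0.230 in the sorted controls (SD, n = 3 each, log2 difference -0.58 ± 0.092, limma adjusted p = 0.0221), where 8.3% of 12513 genes were called (4.29% higher and 4.01% lower). The Tle4 level of the inhibitor libraries, 17.3 ± 0.906 FPKM, lay at that of the sorted controls, a pair of groups not tested here. Tcf7l2, Tle1, Tle4, Bcl9 and Bcl9l were lower in every untreated library than in every sorted control. That is 5 of 9, where 18.1% of all genes were lower without overlap and 35.8% did not overlap in either direction. Tcf7 was higher in the untreated libraries on average (11.96 ± 9.56 FPKM, against 3.83 ± 0.332), but the groups overlapped and it was not called (1.14 ± 0.514, adjusted p = 0.195), except without untreated 242 (1.71, adjusted p = 0.0425). The Tle4 call was lost without both libraries numbered 249 (adjusted p = 0.0837) and without sorted control 242 (0.0852), 249 (0.0887) or 251 (0.119) or untreated 251 (0.0557).

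A wider list of TCF/LEF cofactors held both rises and falls. Of 33 listed genes (other TLE genes, chromatin partners, kinases and inhibitors of the complex) 32 were in the table. In the β-catenin libraries 7 of 31 tested rose and 5 fell, with a median log2 difference of 0.06, against -0.02 over all genes tested, where 18.6% rose and 17.7% fell. The called share of the list was near that of all genes. Tnik, a kinase that binds TCF4 and β-catenin in human colon cancer cells, averaged 26.4 ± 3.77 FPKM in the β-catenin libraries and 0.9998 ± 0.1005 in the sorted controls (SD, n = 3 each, log2 difference 3.77, limma adjusted p = 0.000141). It averaged 2.17 ± 1.21 FPKM in the inhibitor libraries and 1.80 ± 1.66 in the untreated ones (0.27, adjusted p = 0.736), and the effects differed by 3.49 ± 0.524 (adjusted p = 0.00487). Nlk, a kinase that phosphorylates TCF/LEF proteins, averaged 29.1 ± 4.85 FPKM with β-catenin and 16.2 ± 0.654 in the sorted controls (0.80, adjusted p = 0.00801). Aes, a short TLE protein without the repeats of its relatives, averaged 341 ± 65.8 and 211 ± 21.04 FPKM in the same groups (0.68, adjusted p = 0.0224).

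With the inhibitor 0 of the 31 tested cofactors rose and 3 fell, with a median of -0.08 against -0.03 over all genes, where 8.47% rose and 9.6% fell. Tle6, a divergent TLE relative, fell under both manipulations. It averaged 1.89 ± 1.07 FPKM with β-catenin and 9.71 ± 1.65 in the sorted controls (log2 difference -1.94, limma adjusted p = 0.00587), and 1.68 ± 1.13 FPKM with the inhibitor and 9.43 ± 3.03 in the untreated libraries (-2.00, adjusted p = 0.0154). Tle2 averaged 0.650 ± 0.392 FPKM with the inhibitor and 2.49 ± 0.772 in the untreated libraries (-1.08, adjusted p = 0.0410). Tbl1xr1, a subunit of corepressor complexes, averaged 16.1 ± 1.92 and 23.3 ± 2.16 FPKM in the same groups (-0.50, adjusted p = 0.0444). Hipk2, a nuclear kinase, and Ruvbl1, an ATPase of chromatin remodelling complexes, fell with β-catenin (-0.64, adjusted p = 0.0384, and -0.57, adjusted p = 0.0114). Ctnnb1, the gene of β-catenin, lay between 225 and 331 FPKM in all 12 libraries, and a gene total does not show the loss of an exon.

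Of 18 WNT target genes, read out by TCF/LEF factors in many tissues, 8 of 13 tested rose and 3 fell with β-catenin (median 1.33). Of all genes tested, 18.6% rose and 17.7% fell there (median -0.02). With the inhibitor 8 of 10 tested rose and 2 fell (median 2.45), against 8.47% and 9.6% of all genes (median -0.03). Apcdd1 and Sp5 in both comparisons, and Rnf43 and Notum with β-catenin, were under 1 FPKM in every control library. They were tested only because they were high in the manipulated libraries. Lgr5 in both, and Fzd7 with β-catenin, were tested only through the controls. These counts and medians are therefore partly set by the filter. Axin2, a brake on the pathway, averaged 57.2 ± 13.1 FPKM with the inhibitor and 2.78 ± 0.264 in the untreated libraries (log2 difference 3.92, limma adjusted p = 0.000177). Apcdd1, a WNT inhibitor, rose by 4.67 (adjusted p = 0.00716) with β-catenin and 4.46 (adjusted p = 0.000102) with the inhibitor. Sp5 was at 0 in every control library and was at least 151-fold higher with β-catenin and at least 482-fold higher with the inhibitor, with a floor of 3 fragments over the control group, and the list medians were the same with Sp5 at this bound. Lgr5, a receptor for the WNT enhancers R-spondins, and Myc, a driver of cell growth, went the other way. Lgr5 averaged 0.112 ± 0.1003 FPKM with β-catenin and 6.33 ± 2.19 in the sorted controls (-2.68, adjusted p = 0.00217), and Myc averaged 11.8 ± 1.65 FPKM with the inhibitor and 65.1 ± 20.96 in the untreated libraries (-2.33, adjusted p = 0.00142).

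The genes whose pattern over the 12 libraries was most like that of Tcf7 were found by the root mean square difference of log2(FPKM + 1) after each gene was centred on its own mean, among 11458 genes. They were Cd8b1, a chain of the T cell coreceptor CD8, at 0.552, followed by Osbpl3 (0.6), Ptprf (0.689), Bex1 (0.768) and Spock2 (0.787), where the median of all genes was 2.76. Cd8b1 had 28.4 to 61.3 FPKM in the β-catenin libraries and at most 0.0422 in the sorted controls, and 19.3 to 25.7 FPKM in the inhibitor libraries and at most 1.67 in the untreated ones. For Lef1 they included Pde8a (0.166), Stambpl1 (0.274) and Dck (0.304), against a median of 0.937. Each of these 3 had its lowest value in the β-catenin group, at 8.52, 11.4 and 38.8 FPKM. The libraries share depth and cell make-up, and this likeness is a description.

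Some of the 10 genes overlap others, and whether fragments were counted by strand is not given in the sources used here. A630014C17Rik, antisense to the 5′ end of Tcf7 over 6960 bases, had 2.45, 3.12 and 4.35 FPKM in the β-catenin libraries, against 0 to 0.00806 FPKM in the sorted controls. It had 0.226 to 1.43 FPKM in the inhibitor libraries, against 0.0360 to 0.0627 FPKM in the untreated libraries. It was higher without overlap in both comparisons, as Tcf7 was, at far lower FPKM than Tcf7. Cxcr5 overlaps the last 110 bases of Bcl9l on the other strand, at 17.0 to 75.1 FPKM over the 12 libraries. Fragments in such stretches cannot be assigned to a strand here.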

How the data were processed

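The members and gene lists were chosen with earlier results of these data known, so they are no independent sample of genes. The deposited values are FPKM from the authors, in 1 table, and 0 other columns of sample values were in it. Per the submitters' processing notes the tools were HISAT2, HTSeq and Cufflinks and the build was GRCm38 (mm10); no role, version or strand setting of a tool is stated there. Per the labels' protocols RNA was isolated with a Quick-RNA MicroPrep kit, and Novogene ran the transcriptome analysis. Members were matched by gene symbol. Coordinates are from GENCODE M21, which held 98.8% of the gene IDs, and sequences are from RefSeq.

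Within a gene the deposited FPKM are whole multiples of 1 step per library, from which whole fragments were recovered for all 25186 genes above 0 in at least 2 libraries (100%, within a relative tolerance of 1e-05). FPKM divides by library totals of 31.9 M to 49.8 M fragments, so low genes carry more counting error.

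Each comparison was fitted across all genes with limma 3.58.1 (lmFit, eBayes with trend, 2-sided) in R 4.3.3 on log2(FPKM + 1), for genes that reached 1 FPKM in 3 or more libraries of the fit, with Benjamini-Hochberg adjustment over all genes and a threshold of 0.05. The pseudocount of 1 makes differences of low genes smaller than their fold. A gene near 0 in 1 group of a comparison enters the fit only if it is high in the other. The difference of the effects came from a 4-group model of all 12 libraries. Fits used statmod 1.5.0 for the random block, and tables and plots were made in Python 3.11.15 (numpy 2.4.6, with pandas 2.3.3, and matplotlib 3.10.9 for plots). The scripts were tested on simulated data. Whether the 3 libraries of a group stem from different animals is not in the labels, so p-values measure only the spread between these libraries, which may be technical.

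The other genes named were the called list members with the 3 largest rises and falls in each comparison and the 5 genes most like Tcf7 and Lef1 (some without values, and some not reported here). Overlapping genes and cell type markers were added as checks. Inhibitor and untreated libraries of 1 number deviated together from their group means (r over 13861 genes 0.593 for 242, 0.754 for 249 and 0.370 for 251, each above 0.1), so the numbers were taken as pairs. The highest r with another number was 0.361 for 242, -0.391 for 249 and 0.361 for 251. The check thus hardly sets 251 apart from a mismatched pair. The pairing comes from this check and from the shared numbers in the sample titles. The inhibitor differences, SE and adjusted p given per gene are from the fit without a replicate block. Fits that left out a library had no block either. Alternatives were quantile normalization, median centring, voom on recovered fragments, robust eBayes, a pseudocount of 0.1, a filter of 5 FPKM or none, all 12 libraries in the fit, a replicate block, and fits without each library in turn or without both libraries of a comparison numbered 249.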

Additional observations from a re-analysis of the deposited data

How the results depend on the processing

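Each of the 36 pairs of a tested gene and a comparison was refitted under each setting that could be fitted. Of these values 545 kept their direction and their side of the threshold, 12 passed it only under the alternative, 27 lost it and 8 changed sign. None of the 8 was called: in the β-catenin comparison Pygo2 (-0.03 with median centring), in the inhibitor comparison Lef1 (-0.12 without inhibitor 251, and up to 0.37 with another library left out), between the control groups Lef1 (0.03 without untreated 251, and down to -0.08) and Pygo2 (0.02 without sorted control 242 and without untreated 242, 0 without untreated 251, and down to -0.06), and in the difference of effects Tle1 (0.11, and down to -0.98 with another library left out) and Bcl9 (0.03, and down to -0.32) without β-catenin 244. The cause was not tested.

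The β-catenin comparison called 3 members, 5 with all 12 libraries, and 3 to 5 when a library was left out. It called 4656 genes (2387 higher and 2269 lower), 1535 to 5002 when a library was left out, fewer by over 1.5 times without β-catenin 262 or any 1 of the sorted controls. Quantile normalization gave 1993 higher and 2891 lower and median centring 1932 and 3291, and the median log2 difference of all genes was -0.11 and -0.14 there, against -0.02. Tcf7, Tle3 and Bcl9 were called under both, and so was Tle1, which made 4 members. The inhibitor comparison called 5 members and 2292 genes, and 2 to 5 members and 1023 to 2200 genes when a library was left out, fewer genes by over 1.5 times without number 242 or 251 of either group. Untreated against sorted control called 1 member and 1039 genes. It called 2 members with a filter of 5 FPKM and 2 with voom, 0 without both libraries numbered 249, and 0 to 2 with a library left out, as Bcl9l passed with the filter of 5 FPKM and with voom and Tcf7l2 without untreated 249. The genes were 352 with no filter, 522 with all 12 libraries, 291 without both libraries numbered 249, and 23 to 1085 with a library left out, under 1.5 times fewer only without untreated 242 or 249. The difference of effects called 1 member and 1264 genes, 0 members and 808 genes with no filter, 615 genes with voom, and 0 to 1 members and 479 to 1997 genes with a library left out, within 1.5 times of the full count only without β-catenin 244 or 255 or untreated 242.

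With the number as a replicate block the inhibitor comparison called the same 5 members and 3816 genes. Between the control groups, where 1 of the 3 pairs was not above 0.1 (r 0.151, 0.124 and 0.041) and the labels name no shared source, the numbers were not taken as pairs. Each r was still above the highest r with another number (-0.001 to 0.011), a hint from the data and not from the design. The block there gave 0 members, with Tle4 at an adjusted p of 0.0634, and 354 genes. A random block changed no call of a member in the difference of effects. No fixed block was possible for the β-catenin comparison, whose groups share no numbers. With a filter of 5 FPKM, Tcf7l2 was not tested in the inhibitor comparison, nor Tcf7 between the control groups. With 3 libraries a group, an uncalled difference bounds nothing beyond its interval.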
